A study of Homo sapiens with 4 samples.

Results

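The transcripts of 8 genes that set and restrain the apoptotic protease cascade were examined, namely the caspases CASP6, CASP8, CASP9 and CASP10 and the inhibitor of apoptosis proteins (IAPs) BIRC2, BIRC3, BIRC7 and XIAP. They were chosen by gene symbol, and all 8 had a row among the 16658 genes in the table. RNA was sequenced from untreated wild-type HepG2 cells (WT) and from untreated HepG2 cells with ZCCHC4 knocked out by CRISPR/Cas9 (ZCCHC4 KO1), with 2 libraries in each group. HepG2 is an established human liver cancer cell line, and ZCCHC4 KO1 is 1 knockout line, so that an effect of losing ZCCHC4 and a property of this line cannot be told apart. The values are FPKM, fragments counted relative to transcript length and to the total mapped, a unit that sets genes of different length on the same scale.

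Caspases are cysteine proteases made as inactive precursors. Initiators are activated on assembly platforms, CASP8 and CASP10 below death receptors at the cell surface and CASP9 on the apoptosome that forms around cytochrome c released from mitochondria, and they cleave executioner caspases, the class to which CASP6 belongs. IAPs carry BIR domains. XIAP binds and blocks active caspases, whereas BIRC2 and BIRC3 act mainly as ubiquitin ligases in the signalling of tumor necrosis factor receptors and NF-kappaB, and BIRC7 (livin) is a smaller family member known for its expression in melanoma and other tumors. Caspases are governed to a large degree after translation, by cleavage and binding, and the RNA level does not measure their activity.

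ZCCHC4, the targeted gene, was at 7.22 and 5.44 FPKM in WT replicates 1 and 2 and at 1.08 and 2.29 FPKM in ZCCHC4 KO1 replicates 1 and 2. The groups did not overlap, and neither knockout library was at 0. The paper found frameshift mutations when it sequenced the gene in its knockout cells, and the RNA level does not measure the protein. The difference on the log2(FPKM + 1) scale was -1.48 (standard error 0.287, adjusted p = 0.0448, limma with Benjamini-Hochberg adjustment over the 10726 genes tested), and without ZCCHC4 KO1 replicate 1 the adjusted p was 0.0514. Rows were found for 9 of 16 hepatocyte markers, and 0 of the 9 were at 1 FPKM or above in both libraries of either group. AFP, the fetal liver protein usually abundant in HepG2, was at 0 and 0.05 FPKM in WT and at 0 in both ZCCHC4 KO1 libraries, and HNF4A, a transcription factor that defines hepatocytes, was at 0.01 and 0 FPKM in WT. The cells are called by their labels below.

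BIRC7 was the only one of the 8 transcripts that differed between the groups in the test, and it was almost lost from ZCCHC4 KO1 cells. Its level was 2.15 and 1.85 FPKM in WT replicates 1 and 2 and 0.08 and 0.04 FPKM in ZCCHC4 KO1 replicates 1 and 2. The groups did not overlap, and the gap between them was far wider than the gap between the libraries of either group. The mean level was 2 ± 0.212 FPKM in WT and 0.0600 ± 0.0283 FPKM in ZCCHC4 KO1 (SD, n = 2 each), a ratio of 0.0300. In RNA from whole cultures, fewer cells with the transcript and less of it per cell cannot be told apart. The difference on the log2(FPKM + 1) scale was -1.50 (standard error 0.166, 95% interval -1.91 to -1.09, adjusted p = 0.0116 from limma). This scale understates the change of a transcript near 1 FPKM, and with a pseudocount of 0.1 the difference was -3.72. Adjusted p values below 0.05 with a lower level in ZCCHC4 KO1 were found for 480 of the 10726 genes tested (4.48%), against 1 of the 8 caspases and IAPs, and those with a higher level for 161 genes (1.5%), against 0 of the 8. At an unadjusted p under 0.05 the counts for the 8 were 1 lower and 0 higher, where 13.9% of all tested genes were lower and 8.96% higher, so the count of 1 in 8 does not set the group apart from other genes.

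A gene entered the test if 2 or more libraries were at 1 FPKM or above, and BIRC7 passed this filter through its WT libraries alone. A gene that is admitted in this way has to be lower in the other group, so its call is to be read beside the 226 tested genes (2.11%) that were at 1 FPKM or more in both WT libraries and below 1 in both ZCCHC4 KO1 libraries. By the ratio of mean FPKM, BIRC7 ranked 34th from the lowest of all tested genes, and by the log2(FPKM + 1) difference it ranked 132nd. It was among the genes lower at an FDR below 0.05 and at least 2-fold (3.25% of those tested) and among those at least 2-fold lower in mean FPKM without a test (5.93%). It was not among the 6 genes (0.0559%) that were lower in this limma fit at the stricter thresholds of the study (FDR below 0.001, at least 2-fold). In both counts with an FDR the fold is that of FPKM + 1, which is smaller than the fold of FPKM for transcripts near 1 FPKM. The paper states its fold change without a scale. The study's own test reported many more downregulated genes at an FDR below 0.001 and at least 2-fold, and whether BIRC7 was among them was not checked here. Deposited values are rounded to the second decimal and carry no read totals, so the counting error of 0.04 and 0.08 FPKM is unknown.

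**Figure D1:**
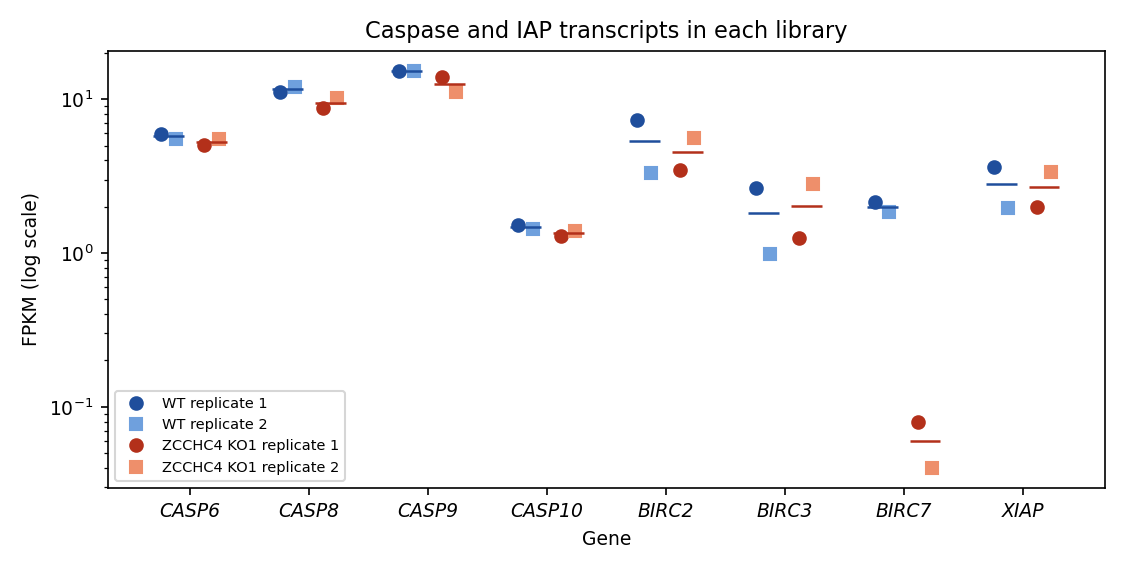
FPKM of the 4 caspases and 4 IAPs (log scale) in each of the 4 libraries, with WT in blue, ZCCHC4 KO1 in red and horizontal lines at the group means. BIRC7 drops from about 2 FPKM to below 0.1 FPKM, while BIRC2, BIRC3 and XIAP spread within each group and overlap between the groups.

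BIRC7 occupies positions 63235905 to 63240495 of chromosome 20 in GRCh38 and is read from the plus strand. The 250 bases before its start site in RefSeq (GRCh38.p14, chr20:63235655-63235904) are printed because it is the transcript that moved, with 2 sequences that hold an E-box core in capitals, CACGTG and CATGTG.

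BIRC7: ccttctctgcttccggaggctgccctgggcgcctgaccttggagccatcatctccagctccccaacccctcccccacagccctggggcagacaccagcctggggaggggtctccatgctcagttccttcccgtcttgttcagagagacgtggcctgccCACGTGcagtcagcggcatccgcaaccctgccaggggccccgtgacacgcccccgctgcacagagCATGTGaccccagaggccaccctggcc

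E-boxes are bound by basic helix-loop-helix proteins such as MYC and MITF. CACGTG, which reads alike on both strands, was present in 6.34% of 35116 RefSeq windows of this length, and CATGTG, counted on both strands, in 9.42%. The BIRC7 window held 10 CpG dinucleotides, where the median window held 11. A match of letters does not show that a factor binds there.

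The 3 tested genes whose profile over the 4 libraries lay nearest to that of BIRC7, by Euclidean distance of the centred log2(FPKM + 1) values, were MPP1 on chromosome X, HMX3 on chromosome 10 and ZNF875 on chromosome 19, at distances of 0.105, 0.111 and 0.112. MPP1 was at 8.96 and 8.67 FPKM in WT and at 2.72 and 2.6 FPKM in ZCCHC4 KO1. HMX3 was at 2.98 and 2.74 FPKM in WT and at 0.29 and 0.25 FPKM in ZCCHC4 KO1. With 4 libraries, such a likeness says little more than that these transcripts were lower by a similar amount in both knockout libraries.

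The other IAPs gave no detectable difference, and their libraries disagreed within each group. BIRC2 (chromosome 11, 102347214 to 102378670, plus strand) was at 7.34 and 3.32 FPKM in WT replicates 1 and 2 and at 3.45 and 5.58 FPKM in ZCCHC4 KO1 replicates 1 and 2. The highest and the lowest of the 4 values were both from WT. The difference in log2(FPKM + 1) was -0.15 (standard error 0.374, 95% interval -1.07 to 0.77, adjusted p = 0.860 from limma). BIRC3, its neighbour on the same strand from 102317484 to 102339403, was at 2.66 and 0.99 FPKM in WT and at 1.25 and 2.82 FPKM in ZCCHC4 KO1. Its values overlapped between the groups as well, with a difference of 0.12 in log2(FPKM + 1) (standard error 0.384, 95% interval -0.83 to 1.07, adjusted p = 0.894 from limma). XIAP, on chromosome X from 123859708 to 123913972, was at 3.63 and 1.97 FPKM in WT and at 2 and 3.36 FPKM in ZCCHC4 KO1. The XIAP difference was -0.04 in log2(FPKM + 1) (standard error 0.306, 95% interval -0.79 to 0.72, adjusted p = 0.964 from limma). In BIRC2, BIRC3 and XIAP alike, WT replicate 1 and ZCCHC4 KO1 replicate 2 were the high libraries, and these intervals leave room for changes of more than 1.5-fold in either direction on that scale. Leaving out 1 library turned the sign of each, over ranges of -0.624 to 0.325 for BIRC2 (positive without WT replicate 1 or ZCCHC4 KO1 replicate 1), -0.320 to 0.559 for BIRC3 (negative without replicate 2 of either group) and -0.356 to 0.284 for XIAP (positive without replicate 1 of either group).

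BIRC2 and BIRC3 are separated by 7810 bases, and the bases before their start sites are shown side by side because they are neighbours whose upstream sequences differ. Their shared high libraries were not particular to the pair, since the same libraries were high for XIAP on chromosome X. The ratio of BIRC2 to XIAP FPKM was 2.02 and 1.69 for WT replicates 1 and 2, against 1.725 and 1.66 for the knockout. The windows are chr11:102346964-102347213 for BIRC2 and chr11:102317234-102317483 for BIRC3, plus strand, RefSeq GRCh38.p14. Capitals in the BIRC3 window mark 2 matches to the kappaB consensus, the site that NF-kappaB binds, and 1 CATGTG E-box read on the other strand.

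BIRC2: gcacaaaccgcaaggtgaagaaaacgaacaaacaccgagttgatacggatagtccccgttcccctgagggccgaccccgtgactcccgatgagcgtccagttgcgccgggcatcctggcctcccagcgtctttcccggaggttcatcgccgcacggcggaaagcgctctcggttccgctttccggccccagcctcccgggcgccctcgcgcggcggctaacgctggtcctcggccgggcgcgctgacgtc

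BIRC3: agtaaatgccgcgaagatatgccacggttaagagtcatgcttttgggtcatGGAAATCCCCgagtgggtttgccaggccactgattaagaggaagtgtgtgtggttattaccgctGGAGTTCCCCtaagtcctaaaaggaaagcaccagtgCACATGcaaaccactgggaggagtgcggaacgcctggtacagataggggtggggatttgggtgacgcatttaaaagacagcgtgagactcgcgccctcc

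The kappaB consensus, searched on both strands, was present in 9.96% of the windows, and it was present in neither the BIRC2 nor the BIRC7 window. The BIRC2 window held 33 CpG dinucleotides, more than 91.9% of the windows, and the BIRC3 window held 11. The ratio of BIRC2 to BIRC3 FPKM was 2.76 and 3.35 for WT replicates 1 and 2, against 2.76 and 1.98 for the knockout. Windows were found for 7 of the 8 genes, and none was found for CASP10. The TATA box (TATAAA, both strands) was in none of the 7 windows and in 10.7% of all windows.

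The 2 libraries of a group were set apart along a trend on transcript GC content, and BIRC2, BIRC3 and XIAP moved in the direction of that trend. Across 10559 tested genes with a GC value, the Spearman correlation between transcript GC content and the replicate 2 minus replicate 1 difference in log2(FPKM + 1) was 0.715 in WT and -0.778 in ZCCHC4 KO1, as a description over genes that share the same libraries. BIRC3 has the lowest GC content of the 8 genes, 35.8%, and its libraries differed 2.69-fold in WT and 2.26-fold in ZCCHC4 KO1. BIRC2 at 42.5% GC differed 2.21-fold and 1.62-fold, and XIAP at 45.0% GC differed 1.84-fold and 1.68-fold. Caspases of like GC content did not spread as far. CASP8 has 42.7% GC, close to BIRC2, and its libraries differed by 1.08-fold in WT and 1.16-fold in ZCCHC4 KO1, where the median over all tested genes was 1.14-fold and 1.26-fold.

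**Figure D2:**
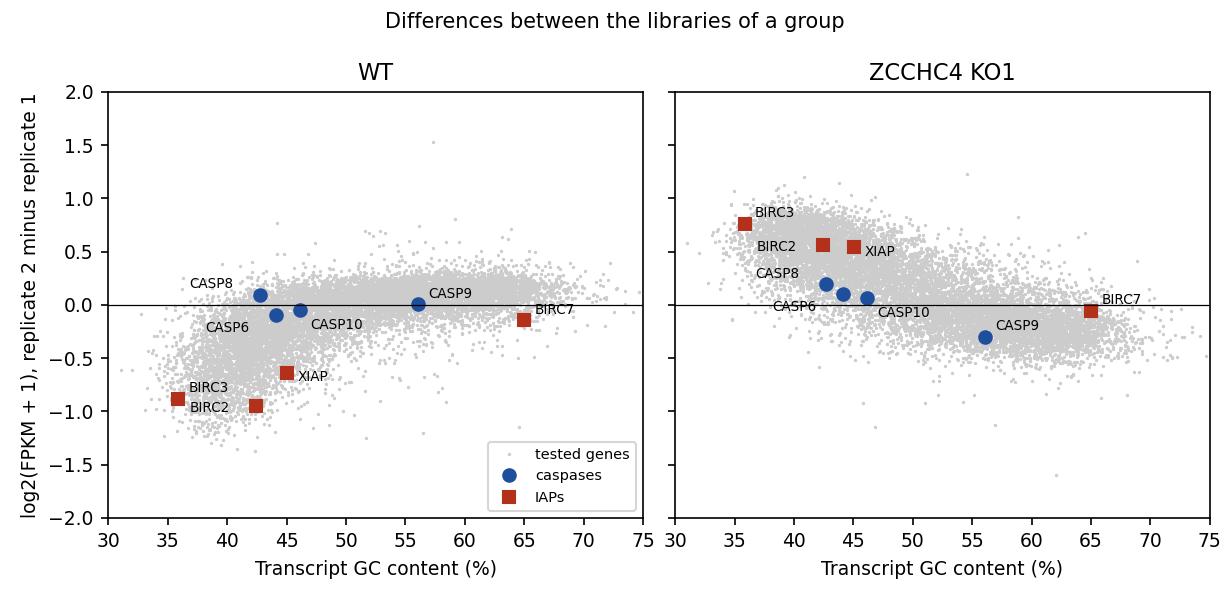
Difference between replicate 2 and replicate 1 in log2(FPKM + 1) against the GC content of the transcript (percent, median over GENCODE transcripts), for WT on the left and ZCCHC4 KO1 on the right, with tested genes in grey (the axis stops at -2 and 2), caspases as blue circles and IAPs as red squares. BIRC2, BIRC3 and XIAP are below -0.6 in WT and above 0.5 in ZCCHC4 KO1, and the 4 caspases lie between -0.3 and 0.2 in both groups.

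When the trend on GC content was removed from each library, the standard error of the BIRC3 difference fell to 0.139, and the difference was 0.09 with a 95% interval of -0.24 to 0.43 in log2(FPKM + 1). For BIRC2 the difference was 0.03 with an interval of -0.46 to 0.51, and for XIAP it was 0.15 with an interval of -0.26 to 0.55. The BIRC7 difference was -1.59 (95% interval -1.94 to -1.24, adjusted p = 0.000986 from limma). With this correction 1431 of 10559 genes (13.6%) were lower and 1336 (12.7%) higher at an adjusted p below 0.05, and BIRC7 was still the only one of the 8 among them. The part of GC content in the spread of single genes was not tested.

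The 4 caspase transcripts were slightly below WT in ZCCHC4 KO1 cells, and none of them passed the unpaired test. CASP8 and CASP9 passed only in a fit that pairs the libraries crosswise, a pairing that the labels do not give and under which 27.8% of all tested genes were lower. CASP9, on chromosome 1 from 15491401 to 15524912 (minus strand), was the most abundant of the 8, at 15.27 and 15.35 FPKM in WT replicates 1 and 2 and at 13.9 and 11.13 FPKM in ZCCHC4 KO1 replicates 1 and 2. The CASP9 difference in log2(FPKM + 1) was -0.28 (standard error 0.180, 95% interval -0.72 to 0.17, adjusted p = 0.430 from limma). With the GC trend removed it was -0.27, with an interval of -0.54 to 0.01. CASP8, on chromosome 2 from 201233463 to 201287711 (plus strand), was at 11.15 and 12 FPKM in WT and at 8.76 and 10.15 FPKM in ZCCHC4 KO1. The CASP8 difference was -0.27 in log2(FPKM + 1) (standard error 0.179, 95% interval -0.71 to 0.17, adjusted p = 0.446 from limma), and -0.09 with the GC trend removed.

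CASP10, the close relative of CASP8, lies 4056 bases from it, from 201183141 to 201229406, and was the scarcest caspase, at 1.53 and 1.44 FPKM in WT and at 1.29 and 1.39 FPKM in ZCCHC4 KO1. The CASP10 difference was -0.09 in log2(FPKM + 1) (standard error 0.172, adjusted p = 0.817 from limma). CASP6, on chromosome 4 from 109664388 to 109709767 (minus strand), was at 5.95 and 5.51 FPKM in WT and at 5.05 and 5.49 FPKM in ZCCHC4 KO1. The CASP6 difference was -0.10 in log2(FPKM + 1) (standard error 0.188, adjusted p = 0.803 from limma), and the nearest libraries of the 2 groups were only 0.02 FPKM apart. The signs of CASP6 and CASP10 turned with the GC trend removed, to 0.08 and 0.09, and with quantile normalization. For CASP6 and CASP10 the 95% intervals were -0.57 to 0.36 and -0.51 to 0.34. Halving the WT level would give -0.80 for CASP6, outside its interval, but only -0.51 for CASP10, at the edge of its interval, so that the data bound the change of CASP10 less tightly.

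In 5 of the 8 genes, the 4 caspases and BIRC7, each ZCCHC4 KO1 library was lower than each WT library, and in 0 of the 8 each was higher. Among all tested genes the groups did not overlap with ZCCHC4 KO1 lower in 28.5% and with ZCCHC4 KO1 higher in 23.1%. The median difference of the 8 genes in log2(FPKM + 1) was -0.13, where that of all tested genes was -0.03. With 2 libraries against 2, an exact permutation test of a single value cannot go below p = 0.333.

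**Figure D3:**
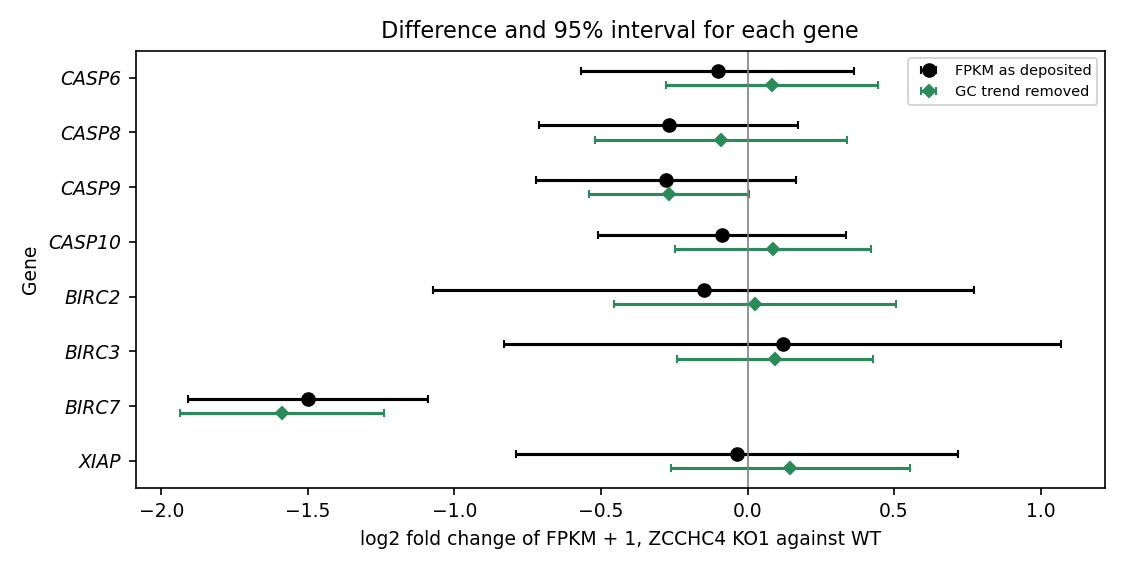
Difference between ZCCHC4 KO1 and WT in log2(FPKM + 1) for each of the 8 genes, with 95% intervals from limma, from FPKM as deposited (black circles) and with the GC trend removed (green diamonds). The interval of BIRC7 lies below 0 in both, and those of BIRC2, BIRC3 and XIAP narrow when the trend is removed but still hold 0.

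The order of the levels was nearly the same in both groups apart from BIRC7. In WT the mean FPKM ran from CASP9 (15.3) over CASP8 (11.6), CASP6 (5.73), BIRC2 (5.33), XIAP (2.80), BIRC7 (2) and BIRC3 (1.83) to CASP10 (1.49). CASP9 and CASP8 were separated from each other and from CASP6 in the range of their libraries, whereas every neighbouring pair from CASP6 downward overlapped. In ZCCHC4 KO1 the order was CASP9 (12.5), CASP8 (9.46), CASP6 (5.27), BIRC2 (4.52), XIAP (2.68), BIRC3 (2.04), CASP10 (1.34) and BIRC7 (0.0600), and BIRC7 had moved from the sixth place to the eighth, clear of CASP10. All 8 were modest transcripts, with CASP9 at the 58.3rd percentile and CASP10 at the 6.70th percentile of the WT levels of tested genes.

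The 4 caspases summed to 33.9 and 34.3 FPKM in WT and to 29.0 and 28.2 FPKM in ZCCHC4 KO1, without overlap. The 4 IAPs summed to 15.8 and 8.13 FPKM in WT and to 6.78 and 11.8 FPKM in ZCCHC4 KO1, and these sums overlapped. BIRC7 supplied 13.6% and 22.8% of the IAP sum in WT, and this share was 1.18% and 0.339% in ZCCHC4 KO1. The ratio of the caspase sum to the IAP sum was 2.15 and 4.22 for WT replicates 1 and 2, against 4.28 and 2.39 for the knockout, so that the libraries of a group differed more than the groups did.

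Partners and regulators of the 8 genes were taken from 8 lists of 53 genes in all, of which 52 had a row and 45 were tested. Of the 45, 3 were lower and 0 higher at an adjusted p below 0.05 from limma, against 4.48% and 1.5% of all tested genes. At an unadjusted p under 0.05, 5 were lower and 7 higher, a threshold passed by 13.9% and 8.96% of all tested genes. The counts given below for single lists are to be held to the same shares at each threshold. Leaving out 1 library gave differences from -0.936 to -0.913 for TNFRSF10B, from -1.264 to -1.057 for TNFRSF10D and from -1.234 to -0.897 for TNFAIP3. The 3 calls were not kept in every such fit, where a group of 1 library is assumed to vary like the other. With the replicate number as a block, only TNFRSF10D was lower. The median difference of the 45 genes was 0.00 in log2(FPKM + 1). With the GC trend removed, the counts were 5 lower and 9 higher, shares to be set beside the 13.6% and 12.7% over all genes given above.

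Of 9 tested death receptors and adaptors, which lead to CASP8 and CASP10, 1 was lower. TNFRSF10B, a receptor for the death ligand TRAIL, was at 25.61 and 25.98 FPKM in WT and at 13.01 and 13.23 FPKM in ZCCHC4 KO1, a difference of -0.92 in log2(FPKM + 1) (standard error 0.147, adjusted p = 0.0264 from limma). FADD, the adaptor that recruits CASP8 to these receptors, was at 35.22 and 40.63 FPKM in WT and at 40.56 and 33.98 FPKM in ZCCHC4 KO1, with overlapping groups. Of 5 tested inhibitors and decoys, 1 was lower. TNFRSF10D, a decoy that binds TRAIL without a full death domain, was at 22.66 and 23.63 FPKM in WT and at 9.05 and 10.6 FPKM in ZCCHC4 KO1, a difference of -1.16 (standard error 0.166, adjusted p = 0.0203 from limma). TNFRSF10B and TNFRSF10D, both lower, lie close together on chromosome 8, from 23020133 to 23069031 and from 23135588 to 23164027. Between them, from 23102921 to 23117445, lies TNFRSF10C of the list of inhibitors and decoys. It was at 0.91 and 1 FPKM in WT and at 0.78 and 0.87 FPKM in ZCCHC4 KO1, too low to be tested. TNFRSF10A, a death receptor of the same list as TNFRSF10B, was at 15.46 and 15 FPKM in WT and at 14.22 and 13.91 FPKM in ZCCHC4 KO1. Its difference of -0.11 in log2(FPKM + 1) did not pass (adjusted p = 0.746 from limma).

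CFLAR, which resembles CASP8 without its protease activity and competes for FADD, lies next to CASP10 on chromosome 2, with 6453 bases between them. It was at 11.26 and 11.77 FPKM in WT and at 10.39 and 11.79 FPKM in ZCCHC4 KO1, and its difference of -0.05 in log2(FPKM + 1) did not pass the test (adjusted p = 0.897 from limma). The ratio of CASP8 to CFLAR FPKM was 0.990 and 1.02 for WT replicates 1 and 2, against 0.843 and 0.861 for the knockout, close to parity in every library.

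On the mitochondrial route, 0 of 5 tested genes of the apoptosome and its trigger passed the test in limma, and 1, BID, was higher at an unadjusted p under 0.05. BID, a cytosolic protein that CASP8 cleaves into an activator of the mitochondrial route, differed by 0.45 in log2(FPKM + 1) (adjusted p = 0.154 from limma), and by 0.48 with the GC trend removed, where it passed (adjusted p = 0.0162 from limma). APAF1, the scaffold on which CASP9 is activated, was at 3.25 and 2.2 FPKM in WT and at 1.37 and 2.24 FPKM in ZCCHC4 KO1, with overlapping groups and a difference of -0.41 in log2(FPKM + 1) (standard error 0.253, adjusted p = 0.403 from limma). Of the IAP antagonists 2 were tested and 0 passed in limma, with 1, DIABLO, higher at an unadjusted p under 0.05. DIABLO, which is released from mitochondria and displaces caspases from XIAP, was at 34.5 and 38.9 FPKM in WT and at 55.44 and 47.62 FPKM in ZCCHC4 KO1. Both knockout libraries were above both WT libraries, but the difference of 0.48 in log2(FPKM + 1) did not pass (standard error 0.150, adjusted p = 0.134 from limma). It passed with the GC trend removed, at 0.59 (adjusted p = 0.0220 from limma). XAF1, a XIAP antagonist, was at 0.57 and 0.4 FPKM in WT and at 0.48 and 0.81 FPKM in ZCCHC4 KO1, too low to be tested.

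Of 8 genes of the NF-kappaB pathway in which BIRC2 and BIRC3 act, 1 was lower and 0 higher, while 2 were higher at an unadjusted p under 0.05. TNFAIP3, a ubiquitin-editing enzyme that limits NF-kappaB signalling, was at 3.61 and 2.65 FPKM in WT and at 0.82 and 1.11 FPKM in ZCCHC4 KO1, a difference of -1.07 in log2(FPKM + 1) (standard error 0.211, adjusted p = 0.0460 from limma). The TNFAIP3 call was lost with no filter on low values (adjusted p = 0.10 from limma) and with the replicate block (adjusted p = 0.0825 from limma). It was lost as well without WT replicate 1 or without ZCCHC4 KO1 replicate 1, at differences of -0.897 and -0.959. NFKBIA, the inhibitor that holds NF-kappaB in the cytoplasm, was at 58.86 and 63.78 FPKM in WT and at 91.76 and 77.1 FPKM in ZCCHC4 KO1. Its difference of 0.45 did not pass (adjusted p = 0.140 from limma) but did with the GC trend removed, at 0.53 (adjusted p = 0.0197 from limma). MAP3K14, the kinase that BIRC2 and BIRC3 keep at a low protein level, was at 10.03 and 11.63 FPKM in WT and at 15.51 and 13.08 FPKM in ZCCHC4 KO1, a difference of 0.37 that did not pass (adjusted p = 0.304 from limma).

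The remaining lists held 0 calls in limma. Of 4 tested caspases outside the 8, 2 had a positive and 2 a negative difference, from -0.32 to 0.23 in log2(FPKM + 1). All 3 other genes with BIR domains had small positive differences, from 0.07 to 0.28. Among 9 substrates and nuclease components the differences ran from -0.79 to 0.60, with 3 higher and 1 lower at an unadjusted p under 0.05.

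The neighbours of each gene on its chromosome were examined as well, as the 10 nearest tested genes on either side. Of all 10726 tested genes, 5708 had a negative difference, and the median was -0.03 in log2(FPKM + 1). Around BIRC7, 16 of 20 neighbours had a negative difference, with a median of -0.28 in log2(FPKM + 1), and they ranged from -0.62 to 1.17, so that none fell as far as BIRC7 at -1.50. Of these 20, 0 were called lower and 1 higher, EEF1A2 (1.17), a translation elongation factor. The nearest genes on either side, YTHDF1 and ARFGAP1, were at -0.58 and -0.28. Around CASP10, 16 of 20 neighbours were likewise negative, with a median of -0.24, and around CASP8, which shares most of them, 15 of 20 with a median of -0.17. The CASP8 and CASP10 differences of -0.27 and -0.09 lie within the range of their neighbours. Around BIRC2 and BIRC3, 10 of 20 were negative and the median was -0.01 for both. The medians around CASP6, CASP9 and XIAP were -0.01, 0.13 and -0.08. Whether these medians bear on the differences of the 8 genes was not tested.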

How the data were processed

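RNA from 2 WT and 2 ZCCHC4 KO1 libraries was sequenced. The authors used Bowtie2 for alignment to GRCh38 and RSEM for quantification, and the FPKM values they deposited cover 16658 genes under Entrez identifiers. Software versions, annotation and read filters are not given in the sources used here. The labels name an Illumina HiSeq and the supplement a BGISEQ-500 instrument. FPKM values carry no read totals, so depth and counting error are unknown, and precision rests on 2 libraries per group, which are not stated to be separate cultures; p-values measure only the spread between them.

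FPKM values were used as deposited. The 10726 genes with an FPKM of at least 1 in at least 2 libraries were tested for a group difference in log2(FPKM + 1) by limma 3.58.1 (R 4.3.3, lmFit, eBayes with trend, two-sided, Benjamini-Hochberg adjustment over all tested genes), and called at an adjusted p below 0.05. The test was run on simulated data with independent noise for each gene and 200 changed genes. Changes of 1, 2 and 4 in log2 were recovered for 137, 199 and 200 genes, with 6, 14 and 21 false calls. With no changed gene there were 0 false calls. The simulated libraries held no GC trend, so the simulation does not show how the test behaves under the trend seen here. Symbols, positions and upstream sequences came from RefSeq (GRCh38.p14), and the GC content (median over transcripts) from GENCODE v44. The GC trend was removed by regressing each library's deviation from the gene mean on a natural spline with 4 degrees of freedom. Named were the 8 genes, ZCCHC4, called genes of each list (up to 3) and 7 partners or regulators chosen for their role. The 3 nearest profiles and the hepatocyte markers AFP and HNF4A were named too, and no row was found for ALB. BID, TNFRSF10A, TNFRSF10C and the genes near BIRC7 were chosen after their values were seen. The 8 genes, the lists, the GC correction and the crossed pairing were chosen with earlier results of these data known.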

Additional observations from a re-analysis of the deposited data

How the results depend on the processing

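BIRC7 was called lower with a pseudocount of 0.1, no filter, median-ratio scaling, quantile normalization, no variance trend, either pairing, the GC trend removed and without each library in turn, with adjusted p from 3.5e-05 to 0.0242 from limma where the prior degrees of freedom were finite. They were infinite with either pairing and without either WT library, and the size of p in those 4 fits is not read as support. The count of lower genes among the 8 was 0 with a minimum FPKM of 5, where BIRC7 is not tested, and 0 at an FDR below 0.001 and at least 2-fold. None of the 8 was called higher under any alternative.

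Directions of genes without a call turned. With quantile normalization CASP6 was at 0.013, CASP10 at 0.012 and XIAP at 0.065, and with median-ratio scaling XIAP was at 0.019. With the GC trend removed CASP6 was at 0.083, CASP10 at 0.087, BIRC2 at 0.025 and XIAP at 0.147. Leaving out 1 library gave from -0.624 to 0.325 for BIRC2, from -0.320 to 0.559 for BIRC3 and from -0.356 to 0.284 for XIAP. BIRC2 and XIAP turned without WT replicate 1 or ZCCHC4 KO1 replicate 1, and BIRC3 without WT replicate 2 (-0.320) or ZCCHC4 KO1 replicate 2 (-0.262). The cause was not tested.

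ZCCHC4 lost its call with a pseudocount of 0.1 (-1.923, adjusted p = 0.0551 from limma), with no filter (-1.476, adjusted p = 0.115) and without ZCCHC4 KO1 replicate 1 (-1.145, adjusted p = 0.0514), and leaving out 1 library gave from -1.807 to -1.145. Quantile normalization raised the number of partners and regulators called higher from 0 to 1, while the share of all tested genes rose from 1.5% to 4.34%. The GC correction raised it to 9, where 12.7% of all genes were higher. Those called lower went from 3 to 5 under the GC correction, while the share of all genes went from 4.48% to 13.6%. At an FDR below 0.001 and at least 2-fold, 0 were lower. Calls rose over all genes too, so these gains cannot be read as particular to the partners and regulators. Both counts also varied when 1 library was left out. A group of 1 library is assumed to vary like the other.

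With the replicate block 1 of the 8 genes was lower and 0 higher, and 1 partner was lower, against 3.31% lower of all tested genes. The labels share only numbers, and across genes the replicate differences of WT and ZCCHC4 KO1 were related by a Pearson r of -0.787. Either block leaves 1 residual degree of freedom. With the crossed pairing 3 of the 8 (BIRC7, CASP8 and CASP9) and 8 partners were lower and 13 partners higher, against 27.8% lower and 21.5% higher of all tested genes.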
